A study of Rattus norvegicus with 14 samples.

Results

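The mevalonate pathway genes up to squalene were followed in fetal rat testis across doses of the plasticizer dicyclohexyl phthalate (DCHP). They were the rows of the count table named for the enzymes that lead from acetoacetyl-CoA to squalene. Of 8 listed genes 6 were found among the 18174 genes of the table, namely Acat2, Hmgcs1, Mvk, Mvd, Idi1 and Fdft1, while Pmvk and Fdps were not analysed here. All 6 passed the filter on low counts. Harlan Sprague Dawley dams were gavaged from gestational day 14 to 18 with corn oil alone (vehicle) or with DCHP in it at daily doses of 100, 300, 600 and 900 mg/kg, and fetal testes were taken on day 18. A library holds the pooled testes of 1 litter, and there were 14 libraries, 2 at the top dose and 3 in every other group. RNA was read by TempO-Seq, in which pairs of probes are ligated on their target transcript and the ligated probes are sequenced.

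The pathway builds isoprenoid units from acetyl-CoA and joins them into squalene, the first molecule committed to sterols. Side branches of the same pathway feed dolichol, ubiquinone and the lipid anchors of proteins. Many of its genes are known targets of the SREBP transcription factors, which are released when membrane sterol is low. Fetal Leydig cells, the androgen-producing cells of the testis interstitium, need cholesterol from synthesis or from lipoproteins as the substrate of testosterone.

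Libraries held 5558873 to 11272861 counts, and 12719 genes were tested. Levels are CPM, counts scaled to a common library size with TMM factors. The probes of 2 genes can capture their targets with different efficiency, so levels are compared between litters of a gene and not between genes. Changes are given on the log2 scale ± SE and were tested by quasi-likelihood in edgeR, with p adjusted over all tested genes (Benjamini-Hochberg), and a gene was called at an adjusted p under 0.05. On the first principal component replicate 1 of vehicle (-43.8) and replicate 1 of the lowest dose (-67.7) lay beside the 900 mg/kg/day litters (-40.2 and -23.5), while the other 10 libraries lay between -2.02 and 39.2. Testis markers were present in every library, with Sertoli markers summing to 1164 to 1522 CPM and germ cell markers to 1070 to 1467 CPM. The Sertoli receptor gene Fshr was at 0 counts in 4 libraries, and the only adrenal marker measured, Mc2r, had 1 to 9 counts.

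Promoters were examined because the 6 genes lay lower over the same dose range. RefSeq promoter sequences (build GRCr8) were matched for 5 of the 6 genes. In the 250 bases before the start site the CCAAT box (CCAAT, bound by NF-Y, a usual partner of SREBP), the GC box (GGGCGG) and a sterol regulatory element (TCACNCCAC) were searched on both strands. A CCAAT box was found in Hmgcs1, Mvk, Mvd and Idi1 but not in Acat2, against 11385 of 33469 rat promoters. The count was 5 in Mvk, 2 in Hmgcs1, 2 in Idi1 and 1 in Mvd. Of all promoters 9.42% held 2 or more and 2.52% held 3 or more. GC boxes were found in 4 of the 5, all but Idi1, against 30.5% of promoters. This exact string of the sterol element, present in 0.974% of promoters, was not matched in these windows, and no other form of it was searched. No CCAAT match overlapped a GC box. The 3 promoters below, from Idi1, whose fall was called, from Mvk, which was never called, and from Hmgcs1, of the enzyme before mevalonate, lie at chr17:66547525-66547774 (minus strand), chr12:47819504-47819753 (minus strand) and chr2:53382054-53382303 (plus strand). Capitals mark the CCAAT box or its reverse complement.
Idi1: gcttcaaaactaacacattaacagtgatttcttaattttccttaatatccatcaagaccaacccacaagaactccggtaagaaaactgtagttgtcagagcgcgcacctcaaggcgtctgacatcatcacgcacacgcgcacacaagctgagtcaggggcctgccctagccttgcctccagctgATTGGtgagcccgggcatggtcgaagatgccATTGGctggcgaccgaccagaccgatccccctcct
Mvk: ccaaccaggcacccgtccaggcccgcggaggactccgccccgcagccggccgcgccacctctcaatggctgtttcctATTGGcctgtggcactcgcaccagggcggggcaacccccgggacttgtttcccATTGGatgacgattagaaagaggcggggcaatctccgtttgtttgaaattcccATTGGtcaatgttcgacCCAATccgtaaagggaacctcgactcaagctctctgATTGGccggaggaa
Hmgcs1: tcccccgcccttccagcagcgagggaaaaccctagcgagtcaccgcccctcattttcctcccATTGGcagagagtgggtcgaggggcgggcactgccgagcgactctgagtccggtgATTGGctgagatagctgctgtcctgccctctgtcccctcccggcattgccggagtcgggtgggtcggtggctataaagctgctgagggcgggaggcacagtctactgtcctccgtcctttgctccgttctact

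All 6 genes lay lower at 600 mg/kg/day than in vehicle in every litter, and 3 of them, Acat2, Idi1 and Fdft1, fell by the test. At 900 mg/kg/day Idi1 and Fdft1 fell, and the same genes were called in the slope over dose. Mean levels at 600 mg/kg/day were 37.0% of vehicle for Acat2, 24.5% for Hmgcs1, 61.0% for Mvk, 41.2% for Mvd, 42.4% for Idi1 and 62.85% for Fdft1. At 900 mg/kg/day Idi1 stood at 29.8% and Fdft1 at 59.25% of vehicle, whereas Acat2 (46.3%), Mvk (83.2%), Mvd (55.2%) and Hmgcs1 (32.2%) were at a higher share than at 600 mg/kg/day.

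**Figure D1:**
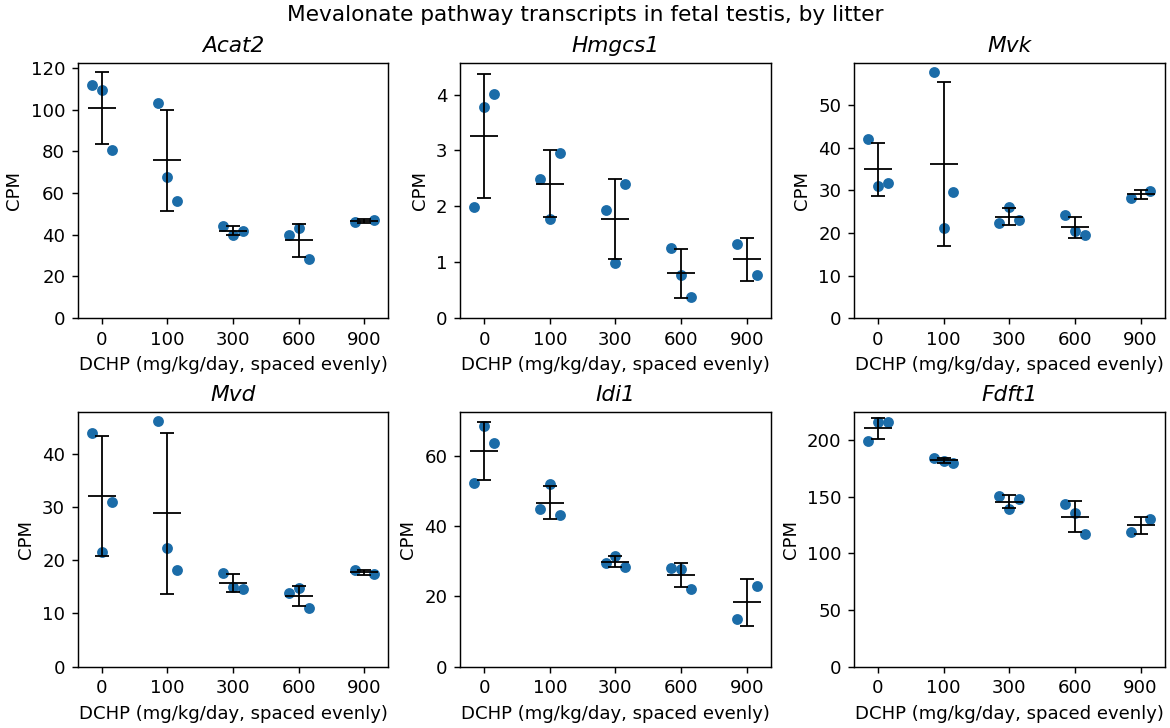
Level of each gene in CPM (vertical axis, from 0) in every litter (points) by DCHP dose, with doses spaced evenly. Bars are the mean ± SD of 3 litters, or of 2 litters at 900 mg/kg/day. Idi1 and Fdft1 have their lowest mean at 900 mg/kg/day, while Acat2, Hmgcs1, Mvk and Mvd have theirs at 600 mg/kg/day.

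The first step in the cytosol joins 2 acetyl-CoA molecules, and Acat2 (ENSRNOG00000019189, rn7 chr1:47695788-47752822, plus strand) encodes the thiolase that does so. Acat2 was at 112, 109 and 80.8 CPM in the vehicle litters and at 103, 67.55 and 56.4 CPM at 100 mg/kg/day. It was at 44.4, 39.8 and 41.9 CPM at 300 mg/kg/day, at 40.01, 43.4 and 28.5 CPM at 600 mg/kg/day and at 46.0 and 47.1 CPM at 900 mg/kg/day. The 100 mg/kg/day litters overlapped vehicle, and all 8 litters at the 3 higher doses lay below both groups. The log2 fold change was -0.41 ± 0.21 at 100 mg/kg/day, -1.26 ± 0.22 at 300 mg/kg/day (edgeR adjusted p = 0.0893), -1.43 ± 0.22 at 600 mg/kg/day (adjusted p = 0.0185) and -1.11 ± 0.25 at 900 mg/kg/day (adjusted p = 0.13, and 0.00212 in DESeq2). Only the change at 600 mg/kg/day was called in edgeR, and the slope over dose of -0.14 ± 0.033 log2 per 100 mg/kg/day was not (adjusted p = 0.115). The slope without the 900 mg/kg/day group was -0.24 (adjusted p = 0.0303). The near relative Acat2l1 rested on few counts, with a mean of 9.86 per library. Its mean level was 84.81% of vehicle at 100, 99.48% at 300, 35.57% at 600 and 30.65% at 900 mg/kg/day.

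Hmgcs1 (ENSRNOG00000016552, rn7 chr2:51649497-51667101, plus strand) encodes the cytosolic HMG-CoA synthase, which acts on the product of Acat2. It rested on few counts, 2 to 38 per library. In vehicle the litters held 20, 38 and 35 counts, or 1.99, 3.78 and 4.00 CPM, and at 100 mg/kg/day 19, 14 and 29 counts, or 2.48, 1.78 and 2.96 CPM. At 300 mg/kg/day they held 18, 8 and 16 counts, at 600 mg/kg/day 10, 5 and 2 counts, and at 900 mg/kg/day 11 and 9 counts. The 600 and 900 mg/kg/day litters, at 0.370 to 1.325 CPM, lay below all vehicle litters, while the 100 and 300 mg/kg/day groups overlapped vehicle. The log2 fold change of -1.94 ± 0.48 at 600 mg/kg/day was the largest of the 6 genes at that dose but did not pass (edgeR adjusted p = 0.303), nor did -1.65 ± 0.52 at 900 mg/kg/day (adjusted p = 0.524) or the slope of -0.21 ± 0.049 (adjusted p = 0.0845).

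Mevalonate is then phosphorylated by the kinase of Mvk (ENSRNOG00000049604, rn7 chr12:42141384-42158883, minus strand), which had no call in any comparison. It was at 42.1, 31.1 and 31.7 CPM in vehicle and at 57.9, 21.1 and 29.7 CPM at 100 mg/kg/day. The litters were at 22.35, 26.0 and 23.1 CPM at 300 mg/kg/day, at 24.1, 20.4 and 19.4 CPM at 600 mg/kg/day and at 28.3 and 29.8 CPM at 900 mg/kg/day. Every litter at 300 mg/kg/day or above lay below every vehicle litter, and both 900 mg/kg/day litters lay above all 600 mg/kg/day litters. The log2 fold change was 0.049 ± 0.28 at 100 mg/kg/day, -0.55 ± 0.28 at 300 mg/kg/day, -0.71 ± 0.29 at 600 mg/kg/day and -0.27 ± 0.32 at 900 mg/kg/day, with edgeR adjusted p of 1, 1, 0.95 and 0.854. The highest vehicle litter and the highest 100 mg/kg/day litter were replicate 1 of each group, the libraries that stand apart on the first principal component. Without both of them, left out after seeing the data, the value at 100 mg/kg/day was -0.29. The slope of Mvk moved from -0.056 ± 0.032 to -0.016 ± 0.020, again with no call.

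Mvd (ENSRNOG00000013376, rn7 chr19:50496367-50507972, minus strand) encodes the decarboxylase that gives isopentenyl diphosphate, the basic isoprenoid unit. In vehicle it was at 43.9, 21.5 and 30.9 CPM, and at 100 mg/kg/day at 46.1, 22.2 and 18.15 CPM. It was at 17.6, 14.98 and 14.6 CPM at 300 mg/kg/day, at 13.75, 14.8 and 11.1 CPM at 600 mg/kg/day and at 18.1 and 17.35 CPM at 900 mg/kg/day. As with Mvk, replicate 1 was the highest litter of the vehicle and 100 mg/kg/day groups, and the 8 litters at the higher doses lay below all vehicle litters. The log2 fold change was -1.03 ± 0.32 at 300 mg/kg/day, -1.28 ± 0.33 at 600 mg/kg/day and -0.86 ± 0.36 at 900 mg/kg/day, and none passed (edgeR adjusted p = 1, 0.341 and 0.852), while DESeq2 called Mvd at 600 mg/kg/day (adjusted p = 0.0318). Without the 2 libraries that stand apart, left out after seeing the data, the value at 600 mg/kg/day was -0.98 ± 0.19. Mvd then passed in edgeR (adjusted p = 0.0195), among 66 of 12608 genes called in that fit.

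Idi1 (ENSRNOG00000016690, rn7 chr17:61629594-61637358, minus strand) encodes the isomerase that turns isopentenyl into dimethylallyl diphosphate, the starter of chain growth. It was at 52.3, 68.4 and 63.55 CPM in vehicle and at 44.9, 51.9 and 43.2 CPM at 100 mg/kg/day. At 300 mg/kg/day it was at 29.65, 31.6 and 28.5 CPM, at 600 mg/kg/day at 28.1, 27.8 and 22.2 CPM and at 900 mg/kg/day at 13.6 and 23.0 CPM. No dose group overlapped vehicle, and each of the groups from 100 to 600 mg/kg/day lay wholly below the dose before it. The 900 mg/kg/day litters differed from each other, and the higher of them lay within the range at 600 mg/kg/day. Idi1 fell at 600 mg/kg/day (-1.23 ± 0.19, edgeR adjusted p = 0.0171), at 900 mg/kg/day (-1.74 ± 0.22, adjusted p = 0.00347) and in the slope (-0.18 ± 0.022 log2 per 100 mg/kg/day, adjusted p = 0.00076). At 100 and 300 mg/kg/day it was at -0.40 ± 0.18 and -1.04 ± 0.185 without a call (adjusted p = 1 and 0.0893). The paralogue Idi2, with a mean of 2.58 counts per library, did not pass the filter.

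Fdft1 (ENSRNOG00000021314, rn7 chr15:37412146-37440288, minus strand) encodes squalene synthase, the branch point at which farnesyl diphosphate is committed to sterols. Vehicle litters were at 199, 215 and 216 CPM and 100 mg/kg/day litters at 184, 182 and 180.0 CPM. The litters were at 150.3, 139 and 148 CPM at 300 mg/kg/day, at 144, 135 and 117 CPM at 600 mg/kg/day and at 119 and 129.9 CPM at 900 mg/kg/day. All 11 exposed litters lay below all 3 vehicle litters, and the 300 mg/kg/day litters lay below the 100 mg/kg/day litters, while the 3 higher doses overlapped their neighbours. Fdft1 fell at 600 mg/kg/day (-0.67 ± 0.099, edgeR adjusted p = 0.0147), at 900 mg/kg/day (-0.75 ± 0.11, adjusted p = 0.0124) and in the slope (-0.084 ± 0.012, adjusted p = 0.00418). At 100 and 300 mg/kg/day it was at -0.21 ± 0.098 and -0.53 ± 0.099 without a call (adjusted p = 1 and 0.102).

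Counts of called genes were read against all 12719 tested genes. At 100 mg/kg/day none of the 6 was called in edgeR, as for all genes (0% called lower), and 1, Idi1, had an unadjusted p under 0.05 with a negative value, against 1.6% of all genes. DESeq2 and limma-trend also called none. Litters of Idi1 and Fdft1 lay wholly below vehicle at this dose, a pattern of 2.99% of all genes. At 300 mg/kg/day edgeR called none of the 6 (0.0472% of all genes fell), 4 had an unadjusted p under 0.05 (1.76% of all genes), limma-trend called none and DESeq2 called Acat2, Idi1 and Fdft1 among 26 of 12715 genes. At this dose 5 of the 6 lay wholly below vehicle, against 4.46% of all genes. At 600 mg/kg/day 3 of 6 fell against 0.189% of all genes, all 6 had an unadjusted p under 0.05 (2.89% of all genes), and all 6 lay wholly below vehicle against 5.92%. At 900 mg/kg/day 2 of 6 fell against 0.204%, all but Mvk had an unadjusted p under 0.05 (2.86% of all genes), and all 6 lay wholly below vehicle against 8.83%. The median log2 fold change of the 6 was -0.30, -0.95, -1.26 and -0.98 from the lowest dose to the highest, and that of all tested genes was 0.010, -0.015, -0.021 and 0.024.

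**Figure D2:**
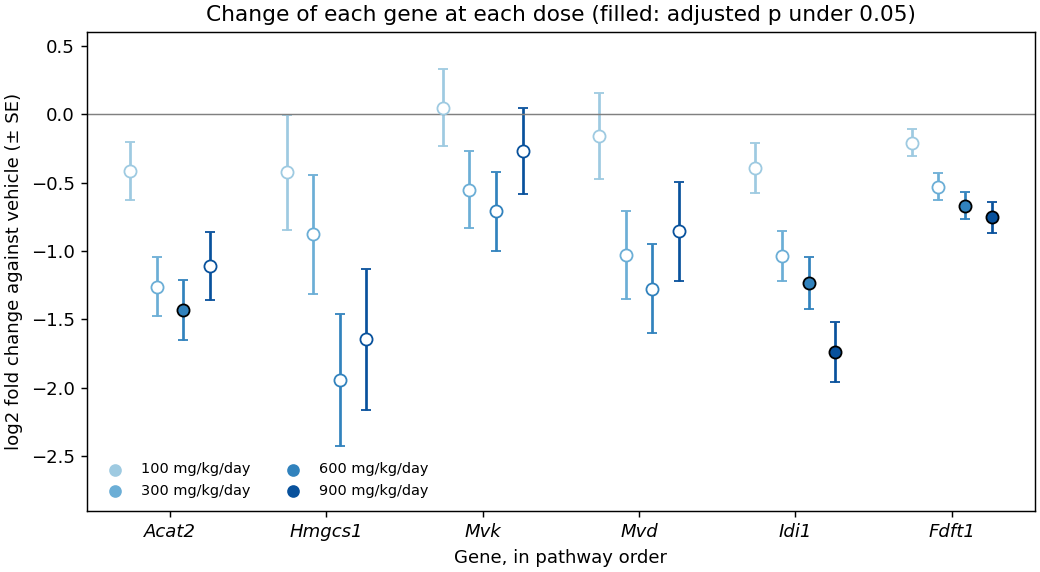
Log2 fold change against vehicle ± SE (vertical axis) of each gene, in pathway order, at 4 doses (shades of blue), from edgeR. Filled points passed at an adjusted p under 0.05, which are Acat2, Idi1 and Fdft1 at 600 mg/kg/day and Idi1 and Fdft1 at 900 mg/kg/day.

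The calls against vehicle rested on few litters. The calls at 600 mg/kg/day for all 3 genes ended without vehicle replicate 2 or either the second or the third litter at 600 mg/kg/day, those of Idi1 and Fdft1 also when vehicle replicate 3 or the first 300 mg/kg/day litter was left out, and those of Acat2 and Idi1 without 600 mg/kg/day replicate 1 (edgeR adjusted p up to 0.159). The call of Idi1 at 900 mg/kg/day was lost when replicate 1 of that dose was left out (adjusted p = 0.0975), and that of Fdft1 without vehicle replicate 3 or either 900 mg/kg/day litter (adjusted p up to 0.454). When vehicle and 1 dose were fitted alone, none of the genes passed in edgeR at 600 or 900 mg/kg/day, when 8 of 11691 and 4 of 12278 genes passed in all. In these fits 6 and 5 of the 6 had an unadjusted p under 0.05, as had 533 and 482 of all genes.

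Each dose was also set against the next lower one. From 100 to 300 mg/kg/day the median of the 6 log2 values was -0.62, with a range from -0.87 for Mvd to -0.32 for Fdft1. Acat2, Mvd, Idi1 and Fdft1 lay wholly lower at 300 mg/kg/day, against 3.36% of all genes. None was called in edgeR (0% of all genes fell), 4 had an unadjusted p under 0.05 against 1.36% of all genes, and none was called by DESeq2 or limma-trend. From 300 to 600 mg/kg/day the median was -0.18, none had a call by these 3 tools, and none had an unadjusted p under 0.05 (0.7% of all genes did with a negative value). Idi1 alone lay wholly lower at 600 mg/kg/day, against 3.97% of all genes. From 600 to 900 mg/kg/day Idi1 (-0.50 ± 0.21, edgeR adjusted p = 0.508) and Fdft1 (-0.086 ± 0.11) had negative values, and only Idi1 had an unadjusted p under 0.05 with a negative value (3.59% of all genes). Acat2 (0.32 ± 0.24), Hmgcs1 (0.30 ± 0.58), Mvk (0.44 ± 0.32) and Mvd (0.42 ± 0.36) had positive values, none called by the 3 tools. Both 900 mg/kg/day litters lay above all 600 mg/kg/day litters for Acat2, Mvk and Mvd, a pattern shared by 26.3% of all genes, and none of the 6 lay wholly lower (20.4%). These neighbouring comparisons share dose groups with each other and with the vehicle comparisons.

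To ask whether the genes fell by unlike amounts, the ratio of 2 genes within each library, which does not depend on library scaling, was followed over dose in all 15 pairs. Idi1 fell more steeply than Fdft1. Their log2 count ratio was -1.78 ± 0.137 in vehicle, -1.96 ± 0.138 at 100, -2.28 ± 0.128 at 300, -2.34 ± 0.0589 at 600 (SD, n = 3 each) and -2.81 ± 0.444 at 900 mg/kg/day (n = 2). The slope of the ratio was -0.10 ± 0.016 log2 per 100 mg/kg/day, with adjusted p = 0.00045 over 15 pairs in a two-sided permutation test. It held in all 14 fits without 1 library (highest adjusted p = 0.0045), and all 8 litters at 300 mg/kg/day and above lay below the other 6.

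Mvk had a shallower slope than Acat2 (ratio of Acat2 to Mvk -0.084 ± 0.026, permutation adjusted p = 0.0473), Hmgcs1 (Hmgcs1 to Mvk -0.16 ± 0.054, 0.0473), Mvd (Mvk to Mvd 0.062 ± 0.023, 0.0473) and Idi1 (Mvk to Idi1 0.13 ± 0.040, 0.0413). Hmgcs1 had a steeper slope than Fdft1 (-0.13 ± 0.047, permutation adjusted p = 0.0473). These 5 calls ended in 9 to 12 of the 14 fits without 1 library, and each of them ended when any of 8 libraries was left out, which were replicates 2 and 3 of vehicle, 2 of the lowest dose, 1 and 3 of the 300 and of the 600 mg/kg/day groups and 2 of the highest dose. Without the 900 mg/kg/day group the calls of Acat2, Hmgcs1, Mvd and Idi1 against Mvk were lost (permutation adjusted p 0.0841 to 0.339). In that fit Acat2 to Fdft1 was gained (-0.13 ± 0.037, permutation adjusted p = 0.0373). Hmgcs1 to Fdft1 (0.0373) and Idi1 to Fdft1 (0.0133) were kept. With replicate 1 of both vehicle and the lowest dose left out, a choice made after seeing the data, 9 pairs passed. Mvk to Mvd was lost, and Acat2 to Idi1, Hmgcs1 to Mvd, Mvk to Fdft1 and Mvd to Idi1 were gained (permutation adjusted p 0.00275 to 0.0218). The other 9 pairs did not pass with all libraries, which does not show that those genes fell alike.

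**Figure D3:**
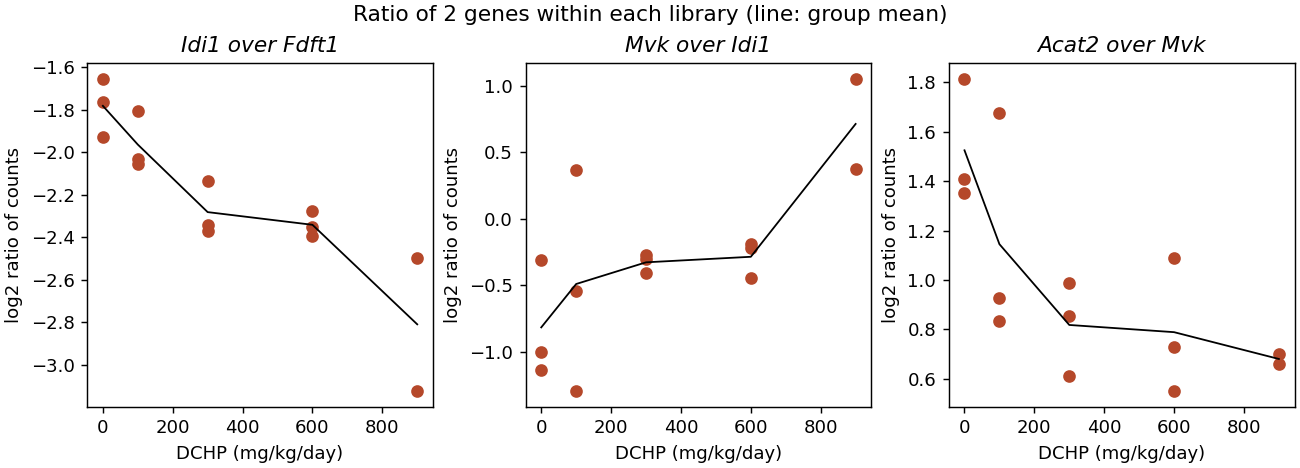
Log2 ratio of the counts of 2 genes within each library (points, vertical axis) against DCHP dose in mg/kg/day, with a line through group means. The ratio of Idi1 to Fdft1 goes from a mean of -1.78 in vehicle to -2.81 at 900 mg/kg/day, and the ratio of Mvk to Idi1 is widest apart at 100 mg/kg/day, where 1 litter stands at 0.36.

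The enzymes past squalene were examined next. Of 8 measured genes 4 fell in the slope over dose, against 2 of the 6 genes up to squalene and 0.33% of all genes (5 of the 6 had an unadjusted p under 0.05, against 2.86% of all genes), and the median slope was -0.13 log2 per 100 mg/kg/day in both lists (6.38e-05 over all genes). Those that fell were Sqle, squalene epoxidase (-0.11 ± 0.015, edgeR adjusted p = 0.00395), the sterol reductase Tm7sf2 (-0.20 ± 0.0345), the methylsterol oxidase Msmo1 (-0.18 ± 0.027) and Dhcr7, which makes cholesterol from 7-dehydrocholesterol (-0.12 ± 0.020). Of the SREBP system and sterol uptake list 3 of 12 tested genes fell, the HDL receptor Scarb1 (-0.24 ± 0.035), the SREBP-retaining protein Insig1 (-0.15 ± 0.026, adjusted p = 0.0127) and the sterol carrier Stard4 (-0.079 ± 0.013). The genes of the factors themselves, Srebf2 (-0.019 ± 0.015) and Srebf1 (0.028 ± 0.034), had no call, and the median slope of that list was -0.010.

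The non-sterol branches gave no call. Of 15 tested genes for the geranylgeranyl, dolichol, ubiquinone and protein prenylation steps 0 passed in edgeR in the slope or at 600 or 900 mg/kg/day, with 0, 2 and 1 at an unadjusted p under 0.05, and their median slope was -0.014. Their summed level was 488 to 520.5 CPM in vehicle and 470 to 485 CPM at 900 mg/kg/day. The smallest slope p were those of Zmpste24, a protease of prenylated proteins (-0.037 ± 0.019, unadjusted p = 0.0709), Pdss1, which makes the ubiquinone tail (-0.029 ± 0.0155, unadjusted p = 0.077), and Ggps1, geranylgeranyl diphosphate synthase (-0.023 ± 0.020, unadjusted p = 0.262). Among 9 thiolase and ketone body genes 1 fell in the slope, Bdh1, a ketone body dehydrogenase (-0.12 ± 0.024, adjusted p = 0.0367), a call lost in 9 of 14 fits without 1 library. The mitochondrial acetoacetyl-CoA thiolase Acat1 (-0.026 ± 0.0185) and the peroxisomal thiolase Acaa1a (-0.064 ± 0.0185) had no call. In the edgeR slope 3 of these 9 genes had an unadjusted p under 0.05, as had 648 of all 12719 genes. Whether the lists differ from each other was not tested.

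**Figure D4:**
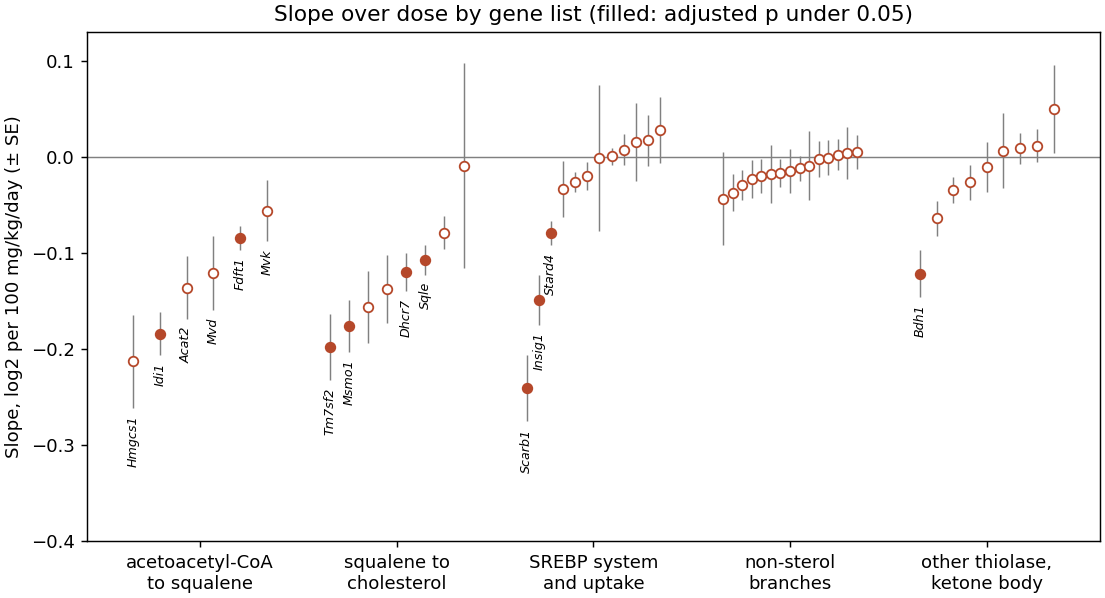
Slope over dose in log2 per 100 mg/kg/day ± SE (vertical axis) of each tested gene in 5 lists, ordered by slope within a list. Filled points passed at an edgeR adjusted p under 0.05, in 2 of 6, 4 of 8, 3 of 12, 0 of 15 and 1 of 9 genes from left to right, and the 6 pathway genes and all called genes are named.

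Markers of steroid-producing Leydig cells also lay lower over the dose range. Their median log2 fold change was -0.65 at 100 mg/kg/day against vehicle, where that of the 6 genes was -0.30. From 600 to 900 mg/kg/day the medians were -0.56 for the Leydig markers and 0.31 for the 6 genes. Whether the lists differ in dose pattern was not tested. Of 9 Leydig markers 7 fell in the slope over dose, with a median of -0.20 log2 per 100 mg/kg/day. They were Star, the mitochondrial cholesterol transporter (-0.28 ± 0.0415), Cyp11a1, the side-chain cleavage enzyme (-0.23 ± 0.0275), Cyp17a1 (-0.37 ± 0.045), Fdx1 (-0.28 ± 0.026), Inha, Hsd3b1 and Insl3, the calls of Hsd3b1 (edgeR adjusted p = 0.0433) and Insl3 (0.0466) being lost in 13 and 11 of the 14 leave-one-out fits. The summed level of the 9 was 6342 to 11520 CPM in vehicle, 4075 to 6793 CPM at 100, 3470 to 4491 CPM at 300, 2085 to 4294 CPM at 600 and 1568 to 1927 CPM at 900 mg/kg/day. In pooled testes fewer Leydig cells and less RNA per cell cannot be told apart, and the part of either in the lower levels of the pathway genes was not tested. Of 43 tested markers of liver, blood, vessel, macrophage, peritubular, interstitial, germ and Sertoli cells 0 passed in the slope in edgeR. Of these 43, 5 had an unadjusted p under 0.05, all with a positive slope. Among all 12719 genes 648 had one, in either direction. Of the 5, 3 were peritubular and smooth muscle markers, of which 6 were tested. Those 6 summed to 281.5 to 316.6 CPM in vehicle, 341.6 to 415.8 CPM at 600 and 313.1 to 429.1 CPM at 900 mg/kg/day. Sertoli markers summed to 1291 to 1522 CPM in vehicle and 1263 to 1468 CPM at 900 mg/kg/day. Interstitial progenitor markers summed to 520.9 and 534.5 CPM in the 900 mg/kg/day litters. They summed to 532.8 and 593.6 CPM in replicate 1 of vehicle and of the lowest dose, and to 303 to 418.7 CPM in the other libraries.

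Genes whose profile over the 14 libraries was most like that of the pathway were sought among 9784 named genes, by Pearson correlation with the mean standardized log2 CPM of the 5 members with at least 20 counts on average. The closest was Hsd17b7 (r = 0.962), a sterol enzyme past squalene, followed by Star (0.948), Scarb1 (0.946) and Pcyt2, of phosphatidylethanolamine synthesis (0.93). The next were Ddit4, a stress-induced inhibitor of mTOR signalling (0.918), the stanniocalcin gene Stc2 (0.913), Susd3 (0.913) and Dusp15 (0.905). These values describe the same 14 libraries, share their dose order and carry no test. Of the 8 genes Star, Scarb1, Pcyt2 and Stc2 fell in the slope over dose, that of Stc2 without a call in 7 of 14 leave-one-out fits, and Hsd17b7 (-0.079 ± 0.017, edgeR adjusted p = 0.0687), Ddit4, Susd3 and Dusp15 did not pass.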

How the data were processed

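Build rn7 and the tools DESeq2, Partek and STAR (2.7.8a) are listed in the submitters' processing notes, with no role for each. The estimated counts per Ensembl gene are those the authors deposited, and a few are not whole (Acat2 by up to 0.01), so all were rounded before testing. The authors also deposited attenuation-adjusted counts, which change 16 genes by more than 1 count and none of the 6 here, and a table of log2 CPM values, which was not used. The counting tool is not given in the sources used here.

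Genes were filtered with filterByExpr (12719 of 18174 kept), scaled by TMM and fitted in 1 edgeR 4.0.16 quasi-likelihood model of 14 libraries (R 4.3.3, 9 residual degrees of freedom, common biological coefficient of variation 0.232). A second fit gave the slope over dose. Standard errors are the effect divided by the root of the F statistic. Ratios between genes added 0.5 to each count, and their slope was tested by 100000 permutations of libraries over doses. Alternatives were RLE factors, library totals, no filter, DESeq2 1.42.0, limma-trend (limma 3.58.1, prior count 1), adjusted counts, fewer groups, rank of dose and leaving out each library. Fits that leave out both replicate 1 of vehicle and replicate 1 of the lowest dose were added after seeing the data. The methods were tested on simulated data.

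All 6 members are named, with list genes that passed or up to 3 with the smallest slope p. Members and lists were chosen with earlier results of these data known. The litter is the unit of replication, and replicate numbers follow accession order.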

Additional observations from a re-analysis of the deposited data

How the results depend on the processing

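Under RLE factors, library totals, no filter and adjusted counts every count of called members was the same as reported. DESeq2 called 3, 4 and 3 members at 300, 600 and 900 mg/kg/day, with 4 over dose, in place of 0, 3, 2 and 2, and over all genes it called 26, 59, 86 and 119, in place of 6, 28, 32 and 54. The rank of dose called 4 members and 80 genes. With only vehicle and 1 dose fitted, 0 passed at 600 and at 900 mg/kg/day in edgeR, with 6 and 5 at an unadjusted p under 0.05, when 8 and 4 of all genes passed. With replicate 1 of both vehicle and the lowest dose left out, chosen after seeing the data, 3 members passed at 300 mg/kg/day, and 4 passed at 600 mg/kg/day, at the top dose and over dose. That fit called 39, 66, 2102 and 1494 of 12608 genes.

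Without 1 library at a time, called members ranged from 0 to 1 at 300 and 0 to 4 at 600 mg/kg/day, and stayed at 2 in the slope. Over all genes these fits called 0 to 9, 6 to 50 and 30 to 76, of 12539 to 13581 tested. With both 900 mg/kg/day litters kept, the call of Idi1 at that dose held, and that of Fdft1 was lost only without vehicle replicate 3. Those fits called 15 to 50 of all genes at that dose. Pairs called without 1 library ranged from 1 to 6, were 3 without the 900 mg/kg/day group and 9 without both replicate 1 libraries.

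Some values without a call changed sign. Against vehicle at 100 mg/kg/day Mvk was at -0.064 with limma-trend, at -0.29 without both libraries and between -0.46 and 0.32 without 1 library, with -0.029, -0.016 and -0.46 as its negative values. Mvd ranged from -0.67 to 0.14 and was at 0.14 without vehicle replicate 1 and 0.089 without 100 mg/kg/day replicate 3. Between 600 and 900 mg/kg/day Fdft1 was at 0.020 with library totals and Hmgcs1 ranged from -0.091, without 900 mg/kg/day replicate 1, to 0.80. Ratio slopes changed sign without the 900 mg/kg/day group for Acat2 to Idi1 (-0.035), Mvk to Fdft1 (-0.015) and Mvd to Idi1 (-0.00961), for Acat2 to Mvd without vehicle replicate 2 (0.0012, in a range from -0.030) and for Mvd to Fdft1 without both libraries (0.017). The cause was not tested. No paired analysis was possible because replicate numbers follow accession order only. Depth limits Hmgcs1 most, at 2 to 38 counts per library.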
